A study of Mus musculus with 2 samples.

Results

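The miR-15, miR-16, miR-195 and miR-497 genes described here in embryonic mouse stomach are 6 of the 1973 genes in the count tables. They were taken by name, namely Mir15a, Mir16-1, Mir15b, Mir16-2 and Mir195a, together with Mir497, which has no row of its own and was read from the strand column opposite to Mir497b. The series measured small RNA, under 30 bases by its size label, in stomach from B6NCrl mouse embryos of mixed sex at day 16.5 of gestation. Its 2 libraries are biological replicates of a single group, and each came from stomachs pooled over embryos. The labels count 41 embryos for replicate 2 and give no count for replicate 1. Both pools carry the same donor label, the labels list no treatment, and the samples include no other tissue or age, so the comparisons are between hairpins and between the libraries. Nothing in the labels separates the cell types of the organ, so fewer cells of a type and less RNA per cell cannot be told apart.

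MicroRNAs (miRNAs) are cut from hairpin precursors, first in the nucleus by Drosha and then in the cytoplasm by Dicer, and guide Argonaute proteins to messenger RNAs that pair with the seed, the stretch from base 2 to base 8 of the mature strand. The miR-15/16 family is known for lowering cyclins and other cell cycle genes, and miR-15a with miR-16 also lowers the survival factor BCL2. In humans the locus of miR-15a and miR-16-1 is often deleted in chronic lymphocytic leukaemia, and in mice miR-195 has been tied to the arrest of heart muscle cell division after birth. The hairpins lie in pairs that are made from a shared primary transcript.

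The mature 5p strands are shown because they define the family. They are RefSeq sequences on GRCm38.p6, written 5′ to 3′, with the seed in capitals.
miR-15a-5p: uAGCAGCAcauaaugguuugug
miR-16-5p, from both Mir16-1 and Mir16-2: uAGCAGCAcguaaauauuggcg
miR-15b-5p: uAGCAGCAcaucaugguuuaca
miR-195a-5p: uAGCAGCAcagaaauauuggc
miR-497a-5p, from Mir497: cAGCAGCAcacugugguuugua
All 5 share the seed AGCAGCA. Counted from 1 at the 5′ end, miR-195a-5p departed from miR-16-5p by G10A and U11G and matched it at 19 of 21 bases. The match to miR-16-5p was 16 of 22 bases for miR-15a-5p, 14 of 22 for miR-15b-5p and 11 of 22 for miR-497a-5p, which also starts with another base (U1C). Among the others, miR-15a-5p and miR-15b-5p were alike at 18 of 22 bases.

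The 3p strands share no such seed. The 3p strands of the Mir16 copies are shown because they tell the copies apart, where the 5p strand cannot.
miR-16-1-3p: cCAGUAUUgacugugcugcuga
miR-16-2-3p: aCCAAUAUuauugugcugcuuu

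On chromosome 14, Mir15a (ENSMUSG00000093007) lies from 61632027 to 61632110 and Mir16-1 (ENSMUSG00000092995) from 61631880 to 61631972, both on the minus strand and 54 bases apart (GRCm38, the assembly that mm10 names). Both sit in introns of the long noncoding RNA gene Dleu2, except that 13 bases of the Mir16-1 hairpin overlap an annotated Dleu2 exon. On chromosome 3, Mir15b (ENSMUSG00000065580, 69009772 to 69009835) and Mir16-2 (ENSMUSG00000065606, 69009902 to 69009996) lie 66 bases apart on the plus strand, in an intron of Smc4, which codes for a subunit of the condensin complex that compacts chromosomes. On chromosome 11, Mir497 (ENSMUSG00000105220, 70234717 to 70234800) and Mir195a (ENSMUSG00000065411, 70235042 to 70235135) lie 241 bases apart on the plus strand, outside any other gene annotated on that strand in GENCODE M21. The row Mir497b (ENSMUSG00000070109, 70234692 to 70234816) covers Mir497 on the minus strand.

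**Figure D1:**
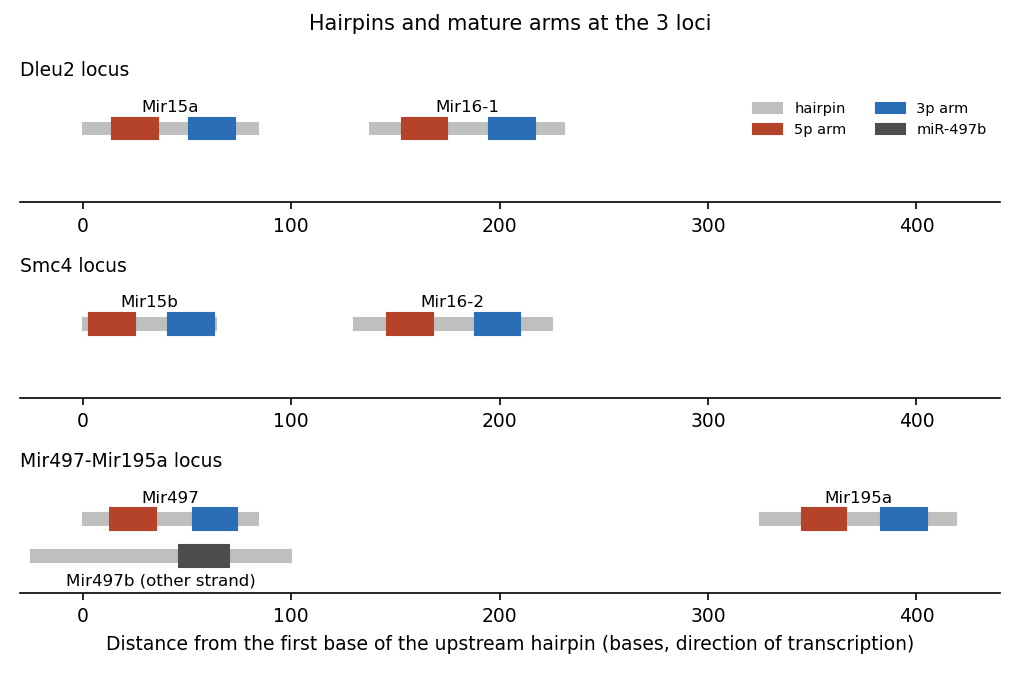
Hairpins (grey) with their 5p and 3p strands at the 3 loci, to scale; the x axis is the distance in bases from the first base of the upstream hairpin, in the direction of transcription. The spacing is 54 bases between Mir15a and Mir16-1, 66 between Mir15b and Mir16-2 and 241 between Mir497 and Mir195a, and Mir497b covers the Mir497 hairpin on the other strand.

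Sequencing gave 15746238 reads for replicate 1 and 15958656 for replicate 2, of which 7739585 and 7989299 were assigned to hairpin genes in the sense direction with Mir497 included. Levels are given as counts per 1000000 of these assigned reads (CPM). A read is a whole small RNA, so hairpins were compared by reads per hairpin and not per base. Whether small RNAs of different sequence yield reads equally well was not tested. For a gene without reads the upper limit, set at 3 reads, was 0.388 CPM for replicate 1 and 0.376 CPM for replicate 2. As a check of the tissue label, the 5 epithelial miR-200 family genes summed to 50851 and 51053 CPM and 4 gut epithelial genes (Mir192, Mir194-1, Mir194-2, Mir215) to 4169 and 3772 CPM in replicates 1 and 2. All 3 neuronal Mir124a hairpins had 0 reads, but such copies can lose reads that align in more than 1 place.

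All 6 genes were present far above this limit in both libraries. Mir15a had the most counted reads of the 6, with 14736 in replicate 1 and 15402 in replicate 2, or 1904 and 1928 CPM. The exact Clopper-Pearson 95% intervals of these levels ran between 1873 and 1935 CPM and between 1898 and 1958 CPM. Its mean of 1916 ± 16.9 CPM (SD, n = 2) ranked 67 in the whole profile. Mir16-1, its partner in Dleu2, had 8722 and 7320 counted reads in replicates 1 and 2, a mean of 1022 ± 149 CPM and rank 97. Both libraries of Mir15a lay above both of Mir16-1, and both of Mir16-1 lay above both of Mir497, the next in order. The counting intervals given here cover counting error only, since no molecular identifiers are given in the sources used here.

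Mir497 and Mir195a followed, close to each other. Mir497 had 5007 and 5585 reads, or 647 and 699 CPM, in replicates 1 and 2, with a mean of 673 ± 36.9 CPM (SD, n = 2). Mir195a had 4800 and 5238 reads, or 620 and 656 CPM, with a mean of 638 ± 25.1 CPM. The ranges of the pair over the libraries overlapped, and the difference of means, 35.1 CPM, was smaller than the combined SD of 44.6 CPM. Within each library Mir195a was the lower of the pair, by the ratios given further on.

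The hairpins in Smc4 were the lowest by mean level, and Mir15b had the widest SD of the 6 members. Mir15b had 2925 reads in replicate 1 and 5470 in replicate 2, or 378 and 685 CPM, with a mean of 531 ± 217 CPM (SD, n = 2). It lay under Mir195a in replicate 1 and above it in replicate 2, so these neighbours in the order did not differ beyond their spread. Mir16-2 was the lowest member in both libraries, with 1874 and 1451 reads, or 242 and 182 CPM, a mean of 212 ± 42.8 CPM and rank 159, and its libraries did not overlap those of Mir15b. Per 100 bases of hairpin, the short Mir15b hairpin stood at 591 CPM in replicate 1 and 1070 CPM in replicate 2. On this scale Mir497 stood at 770 and 832 CPM and Mir16-1 at 1212 and 985 CPM in replicates 1 and 2. Mir15b thus passed both of these in replicate 2 and neither in replicate 1. Mir15a stayed first and Mir16-2 last in both libraries.

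**Figure D2:**
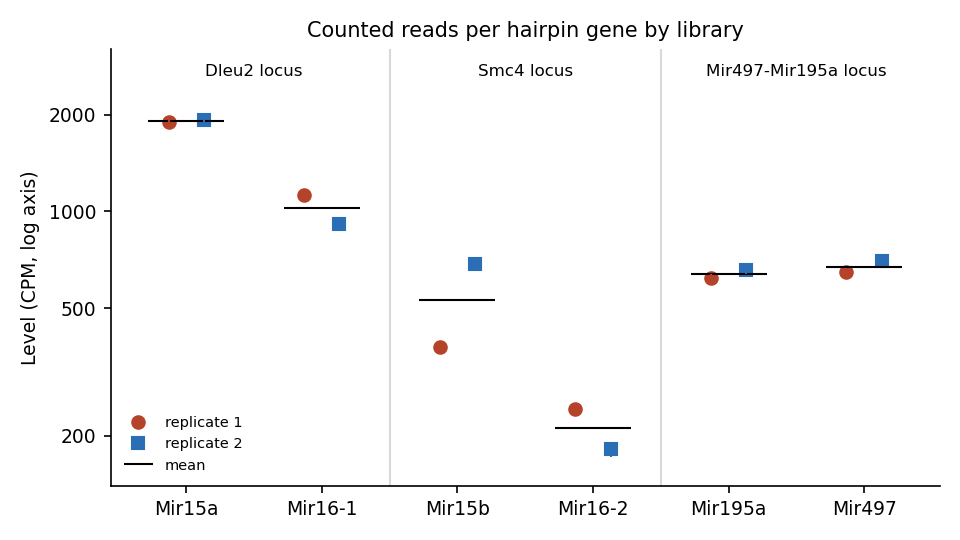
Level of each gene in CPM (log axis) in replicate 1 (circles) and replicate 2 (squares), with the mean of both as a line and exact 95% counting intervals as vertical lines, mostly hidden by the symbols. Mir15a is highest near 1916 CPM, Mir16-2 is lowest near 212 CPM, and Mir15b has the widest gap between libraries, with 378 and 685 CPM in replicates 1 and 2.

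Together the 6 genes held 0.492% of the assigned reads in replicate 1 and 0.507% in replicate 2, a mean of 0.499% ± 0.0104 (SD, n = 2). The exact 95% intervals of these shares, 0.487% to 0.497% for replicate 1 and 0.502% to 0.511% for replicate 2, did not overlap. The Dleu2 pair supplied 58.9% ± 3.87 of their reads, the pair on chromosome 11 supplied 26.3% ± 0.694, and the Smc4 pair 14.9% ± 3.18. The order of the loci was the same in both libraries. The Smc4 pair made up 12.6% of the members' reads in replicate 1 and 17.1% in replicate 2.

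The counts of the Mir16 copies can leave out reads that could have come from either. The tables give multimapping reads, which align in more than 1 place, as a separate summary total. It came to 25.1% of the reads for replicate 1 and 25.2% for replicate 2. The layout implies that these reads were added to no gene, though no source used here states it. The hairpins are shown with their longest common run, 23 bases, in capitals (RefSeq, GRCm38.p6, written 5′ to 3′).
Mir16-1: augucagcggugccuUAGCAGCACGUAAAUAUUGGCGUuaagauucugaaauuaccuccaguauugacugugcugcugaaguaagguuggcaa
Mir16-2: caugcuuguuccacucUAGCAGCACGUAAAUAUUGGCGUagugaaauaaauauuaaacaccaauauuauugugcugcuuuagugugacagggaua
The run holds all 22 bases of miR-16-5p and 1 base beyond its 3′ end. A read that starts at the first base of miR-16-5p and matches the hairpin therefore has to reach 24 bases before it differs between the copies. Of the windows of 22 bases, 2 of 72 in Mir16-1 and 2 of 74 in Mir16-2 occurred in another of the 2202 hairpins of GENCODE M21. No window of 18 or more bases of Mir15a, Mir15b, Mir195a or Mir497 occurred in a hairpin at another place. The genome outside these hairpins was not searched. The longest such run was 16 bases for Mir195a, shared with Mir195b, and 13 bases for Mir15a. The files hold no arm or read length, so how many miR-16-5p reads were counted was not tested. A low value for Mir16-1 or Mir16-2 does not show a low level of miR-16-5p.

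Within each pair, the hairpins were compared in the same library, where scaling plays no part. Mir16-1 had 0.592 counted reads for each read of Mir15a in replicate 1 (exact 95% interval 0.576 to 0.608) and 0.475 in replicate 2 (0.462 to 0.489). On the log2 scale the mean ratio was -0.91 ± 0.22 (SD, n = 2). Mir16-2 had 0.641 counted reads for each read of Mir15b in replicate 1 (0.604 to 0.679) and 0.265 in replicate 2 (0.250 to 0.281), a mean log2 ratio of -1.28 ± 0.90. In both pairs, and in both libraries, the Mir16 copy had fewer counted reads than its Mir15 partner.

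Mir195a lay slightly under Mir497 in counted reads within both libraries, by more than counting error alone. Mir195a had 0.959 reads for each read of Mir497 in replicate 1 (exact 95% interval 0.921 to 0.998) and 0.938 in replicate 2 (0.903 to 0.974), a mean log2 ratio of -0.08 ± 0.02 (SD, n = 2). Both intervals lay under a ratio of 1, and the mean difference exceeded the spread between the libraries. Per 100 hairpin bases the mean log2 ratio was -0.24, since the Mir195a hairpin is annotated as the longer one.

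Side by side with the rest of the genome, the pair of Mir195a and Mir497 was evenly matched. Annotated hairpins within 1000 bases of each other on the same strand, with at least 1 of them at a mean of 10 CPM, formed 145 pairs, which overlap where a cluster has several hairpins. Of these, 83 (57.2%) differed at least 10-fold in mean CPM and the median difference was 15.9-fold. None of the other 144 pairs was closer than Mir195a and Mir497. The Dleu2 pair was closer than 124 pairs and the Smc4 pair closer than 116, though both include a Mir16 copy, whose count may be short of shared reads. Other pairs also include hairpins named as copies of one another, whose counts may be short in the same way. How far this widened the differences was not tested. The 145 pairs include pairs with 1 hairpin under 10 CPM, which is not so for any member pair. Among the 80 pairs with both hairpins at 10 CPM or more, 27 (33.75%) differed at least 10-fold and the median difference was 4.06-fold. Among pairs within 10 kb, 5 of 663 were closer than Mir195a and Mir497.

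The ratio within a pair also moved between the libraries by different amounts. For Mir195a over Mir497 the log2 ratio in replicate 1 minus that in replicate 2 was 0.03, for Mir16-1 over Mir15a it was 0.32, and for Mir16-2 over Mir15b it was 1.27, which is 2.42-fold. Over the 80 neighbouring pairs with both hairpins at 10 CPM or more, the median absolute shift was 0.24. A shift of at least 2-fold was seen in 7 of the 80 pairs (8.75%), and 3 of the 80 had a larger shift than the Smc4 pair. With 2 libraries this shift has no replicate check. The counts of the Mir16 copies may be short of shared reads, and whether that part differed between the libraries was not tested.

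**Figure D3:**
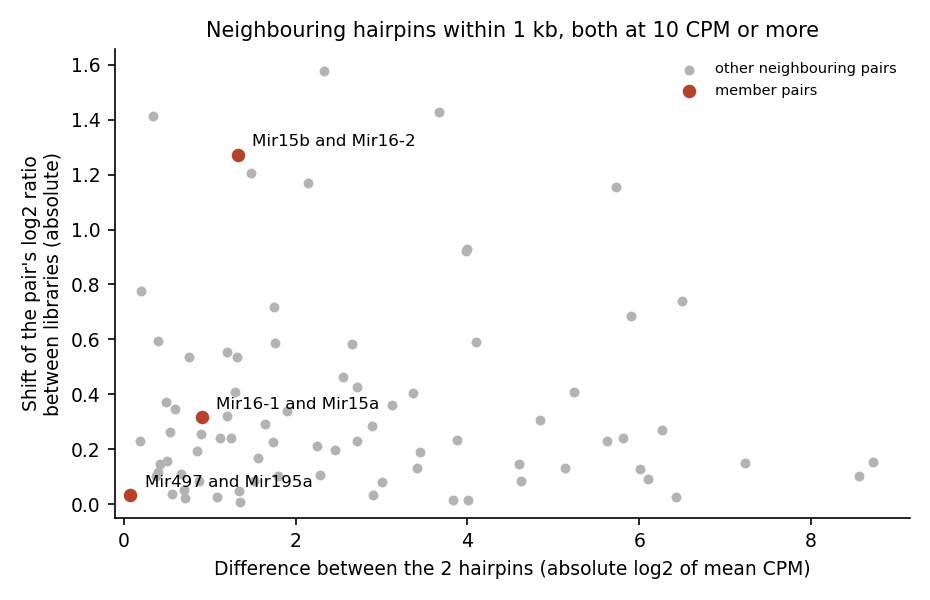
For the 80 pairs of neighbouring hairpins with both at 10 CPM or more, the x axis gives the absolute log2 difference of their mean CPM and the y axis the absolute shift of the pair's log2 ratio between replicate 1 and replicate 2; members are in red. Mir497 with Mir195a lies nearest to 0 on the x axis with a shift of 0.03, and the Smc4 pair has a shift of 1.27, with 3 pairs above it.

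Replicate 1 was then set against replicate 2 for every gene at a mean of 10 CPM or more, with libraries scaled by the trimmed mean of M values (TMM). Each gene's pair of counts was put to an exact binomial test, two-sided and adjusted by Benjamini-Hochberg over all 290 genes tested, which compares 2 libraries, not conditions or animals. Mir15b was lower in replicate 1, at a ratio of 0.487 (log2 ratio -1.04, 95% interval -1.10 to -0.97, adjusted p 9.18e-228 by the exact test). It was 1 of 6 members past both an adjusted p of 0.05 and 2-fold, where 7.93% of all genes tested passed, 21 higher and 2 lower in replicate 1. With 20 of the 290 genes showing a larger absolute log2 ratio, Mir15b stood close to the 2-fold limit, and at -0.86 when scaled by total assigned reads and -0.9998 when scaled over all genes it missed that limit. The sums of several marker lists, in CPM without TMM scaling, were higher in replicate 1, where Mir15b was lower on either scale. In replicates 1 and 2 they were 3207 and 103 CPM for striated muscle (3 of 4 listed genes had a row), 5313 and 2538 CPM for the smooth muscle gene Mir145a, 1223 and 577 CPM for 2 erythroid genes, and 1820 and 1209 CPM for the hepatocyte gene Mir122. For endothelial Mir126a the levels were 29010 and 29029 CPM in replicates 1 and 2, for 3 leukocyte genes the sums were 1354 and 1246 CPM, and for 2 mesenchymal genes 9179 and 7445 CPM. The striated muscle sum was nearly all Mir206, at a mean of 1641 CPM, against 13.7 CPM for Mir133b. Genes of 1 cell type did not all lie on the same side. On the log2 scale with TMM, the ratio of replicate 1 over replicate 2 was 1.20 for erythroid Mir451a and -0.38 for erythroid Mir144, and 0.96 for mesenchymal Mir199b and -0.08 for mesenchymal Mir214. For smooth muscle it was 0.88 for Mir145a and -0.17 for its more abundant cluster partner Mir143, which was in no marker list and is named after its values were seen. The part of these differences in the ratio of Mir15b was not tested.

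The other members differed by less than 1.5-fold. Mir497 and Mir195a were both lower in replicate 1, at ratios of 0.816 and 0.834 (log2 ratio -0.29, 95% interval -0.35 to -0.24, and -0.26, -0.32 to -0.21). Mir15a had a ratio of 0.870 (log2 ratio -0.20, 95% interval -0.23 to -0.17). The Mir16 copies lay on the other side, at ratios of 1.08 for Mir16-1 (log2 ratio 0.12, 95% interval 0.07 to 0.16) and 1.17 for Mir16-2 (log2 ratio 0.23, 95% interval 0.13 to 0.33). At these depths counting error is small, and with no minimum fold all 6 members passed the adjusted p of 0.05 by the same exact test, as did 76.2% of all genes tested. After Mir15b, their adjusted p-values by this exact test ran from 8.06e-33 for Mir15a to 6.78e-06 for Mir16-2. The median absolute log2 ratio was 0.25 for the members and 0.24 for all genes tested. Scaling by total reads moved the median log2 ratio of the 290 genes to 0.20 from 0.02 with TMM, and Mir15a then stood at -0.02 with an adjusted p of 0.309 by the exact test.

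**Figure D4:**
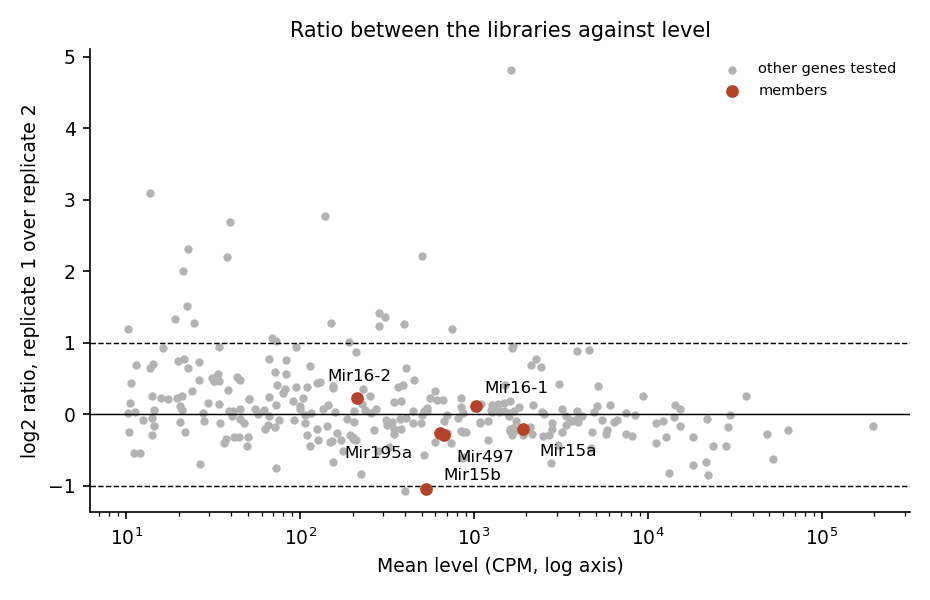
Log2 ratio of replicate 1 over replicate 2 (TMM scaling) against mean level in CPM (log axis) for the 290 genes tested, with members in red and dashed lines at 2-fold. Mir15b lies just past the lower line at -1.04, and the other members lie between -0.29 and 0.23.

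The members were next set beside other hairpins with the same seed. In the RefSeq table, mature strands with the seed AGCAGCA came from 11 hairpins, all with a row or, for Mir497, the opposite-strand count. Besides the 6 members these were Mir322, Mir195b, Mir6342, Mir6353 and Mir6419. Mir322, the X-linked mouse counterpart of human miR-424, is shown for its shared seed.
miR-322-5p: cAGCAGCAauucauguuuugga
Mir322 had 134689 reads in replicate 1 and 152242 in replicate 2, or 17403 and 19056 CPM, a mean of 18229 ± 1169 CPM (SD, n = 2). This was 9.51 times the mean of Mir15a and 3.65 times the 6 members together. Of all counted reads from hairpins with this seed, the members held 21.5% ± 0.732 (SD, n = 2) and Mir322 held 78.5% ± 0.732. The members' exact 95% interval ran from 21.8% to 22.2% in replicate 1 and from 20.8% to 21.2% in replicate 2. Since reads shared by the Mir16 copies may be missing, the members' part is a share of counted reads only. The counts also pool both strands of a hairpin, and in Mir322 and the members only the 5p strand carries this seed. How the reads divide between the strands was not tested.

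The remaining relatives were at or under the limit of 3 reads. Mir195b, which lies on chromosome 2 and not at the Mir195a locus, had 0 reads in replicate 1 and 1 in replicate 2. Mir6342, Mir6353 and Mir6419 had 0 reads in either library, a count that leaves room for a level up to the limits given above. Mir503, the neighbour of Mir322 with the related seed AGCAGCG, had 5304 and 6360 reads in replicates 1 and 2, a mean of 741 ± 78.3 CPM (SD, n = 2), near the level of Mir497. At the Mir497 locus, the strand column of Mir497b itself had 1 read in replicate 1 and 0 in replicate 2, against 5007 and 5585 reads on the Mir497 strand.

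**Figure D5:**
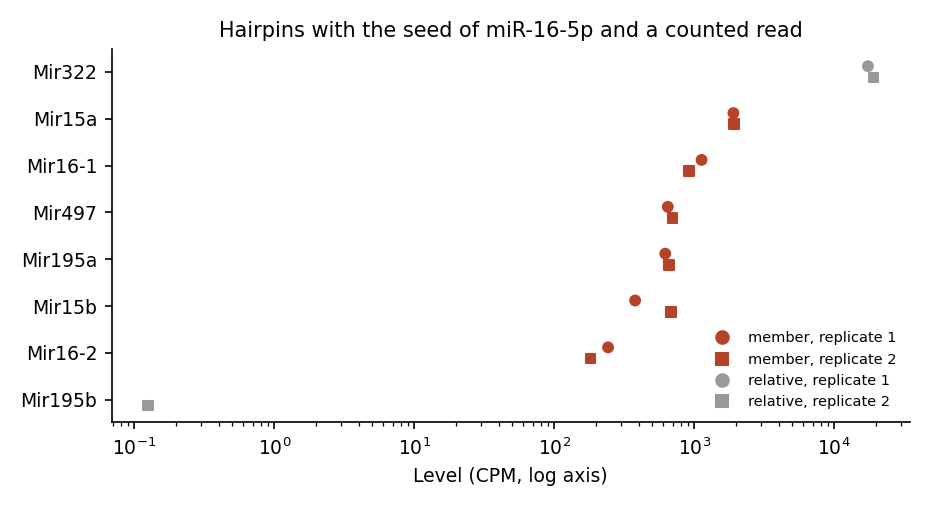
Level in CPM (log axis) of the hairpins with the seed AGCAGCA and a counted read, in replicate 1 (circles) and replicate 2 (squares), with members in red and relatives in grey; a library with 0 reads has no symbol. Mir322 lies near 18229 CPM, the members between 182 and 1928 CPM, and Mir195b at a single read.

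By level in both libraries, the nearest gene to Mir195a among the 617 with a read in each was its own partner Mir497, at a distance of 0.11 on the log2(CPM + 1) scale over 2 libraries. The nearest to Mir497 was Mir31, at a distance of 0.09 and 685 and 722 CPM in replicates 1 and 2. Mir15a was nearest to Mir139 (distance 0.06), Mir16-1 to Mir134 (0.13), Mir15b to Mir27a (0.33) and Mir16-2 to Mir340 (0.05). Mir15b had the most distant nearest gene of the 6. With 2 libraries this likeness is little more than a like mean level.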

How the data were processed

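Small RNA from 2 pools of embryonic mouse stomach was analysed. The authors deposited raw read counts per gene, 1 column ignoring strand and 1 for each strand. The records deposited with the tables name mm10 and GENCODE M4. Which aligner, counter and trimming were used is not given in the sources used here. The 4 rows of summary totals stayed out of library sizes and tests. Unmapped reads were 21.3% and 20.3% of all reads in replicates 1 and 2, and reads outside counted genes 2.81% and 3.11%.

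Column 3, with the larger total, was taken as sense, and Mir497 was read from column 4 of Mir497b and added to the totals. GENCODE M21 (GRCm38) gave symbols for 1894 of 1973 genes, and the other 79 held 3 reads. RefSeq gave mature sequences. CPM means and SDs are over both libraries. TMM factors came from edgeR 4.0.16 under R 4.3.3, on genes averaging at least 10 CPM, with 0.5 added to counts for ratios. edgeR has no residual degrees of freedom with 1 library a side, so the exact binomial test was used, which carries no spread among animals. The code of this test was checked on simulated counts. DESeq2 1.42.0 gave alternative size factors. Python 3.11.15 with scipy 1.17.1 did the rest.

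Named genes are the members, hairpins with the seed of miR-16-5p, Mir503, Mir195b, Mir497b and the 1 nearest gene of each member. Markers, neighbouring pairs and alternatives (denominator, strand, scaling, level and fold minimum, distance, hairpin length, seed length, each library left out) were set with earlier results of these data known, as were the members and lists.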

Additional observations from a re-analysis of the deposited data

How the results depend on the processing

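Of 75 values recomputed, 54 stayed within the spread of the libraries or on the same side of the threshold. For counts of genes or pairs the limit was 1.5-fold instead. No log2 ratio changed sign, and levels, shares and counts cannot. Leaving out 1 library could not move a level, share or within-pair ratio past that spread. Each library lies closer to the mean of 2 than their SD, so these values are among the 54 by construction. With all reads as the denominator, levels came to 950 CPM for Mir15a, 506 for Mir16-1, 264 for Mir15b, 105 for Mir16-2, 317 for Mir195a and 334 for Mir497, and the summed share to 0.248%, since the denominator holds unassigned reads. With strand ignored, Mir15a stood at 1858 CPM and the summed share at 0.484%. The share was 0.432% without Mir497 and 0.376% without the Mir16 copies, both chosen after seeing the data. Per 100 hairpin bases, the log2 ratio of Mir195a over Mir497 was -0.24. Within 10 kb, 468 pairs differed at least 10-fold. The log2 ratio of Mir15b was -0.86 with total-read scaling and -0.9998 with no minimum level, so 0 members passed 2-fold in either; by the exact test 6 passed with no minimum fold. Genes past the threshold numbered 23, against 54 with no minimum level, 58 at 1.5-fold and 221 with no minimum fold. The 21 higher and 2 lower genes became 29 and 0 with total-read scaling, and 34 and 20 with no minimum level. Without 1 replicate a ratio between libraries cannot be computed. No paired analysis was possible because the series has a single group. Counting error is small for the members at this depth. How far multimapping reads lower the Mir16 counts was not tested.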
